A study of Homo sapiens with 18 samples.

Results

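Gene expression in U87 cells, an established human glioblastoma line, was compared between 2 rexinoids known here only by their codes, A41 and A34. A rexinoid is a ligand of the retinoid X receptors (RXR). The members of the comparison were chosen by library title: 3 libraries titled for A41 and 3 titled for A34, 6 of the 18 libraries of the series. Cells of both groups had received 100 nM of the compound for 24 h, so dose and time matched and 1 pair of compounds was compared. The other 4 groups of 3 were ethanol (the vehicle), bexarotene (an RXR agonist in clinical use, also at 100 nM), A80 and A98; all 6 groups were U87 cells with no other agent named. Nothing in the labels says that a group's libraries are separate cultures, so the p-values speak of library-to-library spread, part or all of which may be technical. No structure is given here for A34 or A41.

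RXR proteins bind DNA as partners of other nuclear receptors. With a retinoic acid receptor (RAR) as partner they control genes that take up, store and break down retinoids, and with a liver X receptor (LXR) as partner they control genes of cholesterol export and fatty acid synthesis. Some of these pairs respond to the RXR ligand alone, and others respond mainly when the partner also has its ligand. A pair of receptors contacts DNA through 2 copies of a hexamer close to AGGTCA.

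The retinoid genes CYP26B1, DHRS3 and STRA6 were higher with A41 than with A34, while no difference was called for SCD and ABCA1, lipid genes that both compounds raised over ethanol. By limma, 13 of 18269 genes tested were higher with A41 (0.0712%) and 0 were lower, at an adjusted p of 0.05 or less. At an unadjusted p under 0.05, 726 genes were higher (3.97%) and 713 lower (3.9%). The 13 were DHRS3, PTGES, TGM2, CYP26B1, STRA6, ID1, PTPRJ, NRIP1, SMAD3, GALNT12, LINC02551, FAM89B and HOTAIRM1. Levels below are TPM (the authors' share of transcripts in a library, corrected for gene length) after scaling between libraries, called scaled TPM, with mean ± SD and n = 3 libraries per group. Fold changes are differences of log2(scaled TPM + 1), A41 minus A34, which understate the change of low genes. Adjusted p-values come from limma (two-sided) after Benjamini-Hochberg correction over the genes tested.

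Between 1.40 and 3.20 gigabases were aligned in the 6 libraries, and each had 13116 to 16625 genes at 1 TPM or more. A41 replicate 2 stood apart: genes of ribosomal RNA took 56.1% of its TPM, against 0.349% to 1.09% in the other 5 libraries, and it had the fewest genes at 1 TPM. It was kept, and the calls without it are given with those of the other omissions. Among the reference groups used below, ethanol replicate 2 (35.5%) and bexarotene replicate 1 (44.9%) were also rich in ribosomal RNA. Pearson's r across genes was 0.965 to 0.974 within A34, 0.951 to 0.979 within A41 and 0.944 to 0.977 between them. The mesenchymal filament gene VIM was high in both groups, at 3949 to 4112 with A34 and 3393 to 3668 with A41. Other listed mesenchymal genes, such as COL3A1 and POSTN, were not among the genes tested. Of astroglial genes GJA1 was at 63.2 to 69.2 and 56.8 to 70.1 and GFAP at 0.208 to 0.993 and 0.817 to 1.43, while S100B was listed at 0 in all 6. The markers MOG (oligodendrocytes), KRT5 and KRT14 (epithelium) were listed at 0 in all 6 libraries, and the leukocyte marker PTPRC was at 0.173 or less. Other members of the same marker lists were expressed. CD68 (microglia and leukocytes) was at 184 to 198 with A34 and 164 to 232 with A41, and CSF1R at 11.1 to 16.3 and 11.7 to 13.2. CNP (oligodendrocytes) was at 25.1 to 27.9 and 28.6 to 36.6, and KRT8 (epithelium) at 1.23 to 2.11 and 0.970 to 2.20.

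**Figure D1:**
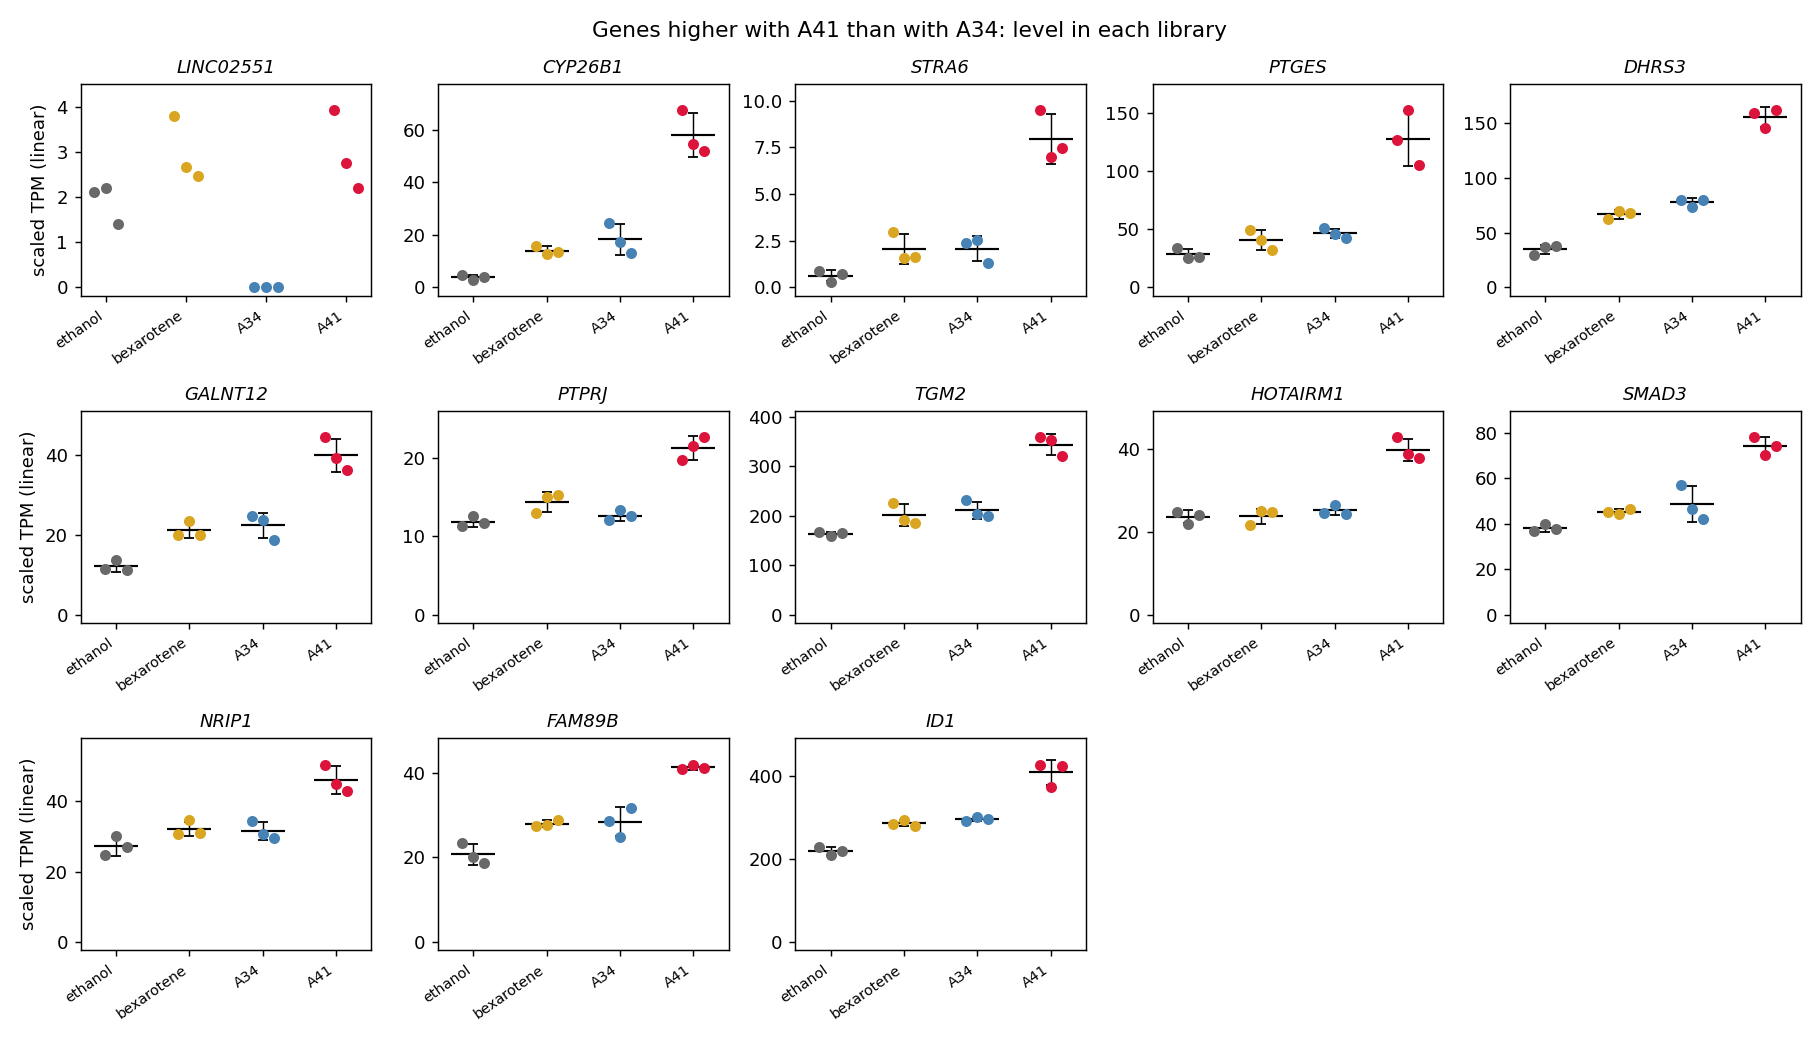
Scaled TPM (linear axis) of the 13 genes higher with A41, in each library of 4 groups; points are libraries, and bars are the mean and SD of 3 (omitted for LINC02551, which was listed at 0 in the A34 libraries). The 3 A41 libraries lie above the 3 A34 libraries in every panel.

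The starts of 3 of the called genes are shown because these genes had the smallest adjusted p (DHRS3, PTGES) or the largest fold of means (STRA6). Each sequence is the 250 bases before a RefSeq start on GRCh38.p14, read 5′ to 3′ on the minus strand. Capitals mark the hexamers AGGTCA together with its variants AGTTCA, as well as GGGTCA and the further variant GGTTCA, searched on both strands.
STRA6: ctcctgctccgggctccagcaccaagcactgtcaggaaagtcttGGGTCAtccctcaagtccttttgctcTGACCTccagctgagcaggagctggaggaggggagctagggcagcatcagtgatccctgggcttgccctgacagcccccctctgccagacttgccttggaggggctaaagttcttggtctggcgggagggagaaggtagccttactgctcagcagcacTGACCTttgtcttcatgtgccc
DHRS3: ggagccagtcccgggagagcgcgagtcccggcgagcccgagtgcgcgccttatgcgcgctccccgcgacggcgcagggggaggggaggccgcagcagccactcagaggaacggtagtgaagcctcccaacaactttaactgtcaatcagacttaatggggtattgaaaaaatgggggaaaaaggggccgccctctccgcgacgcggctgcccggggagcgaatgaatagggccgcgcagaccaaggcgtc
PTGES: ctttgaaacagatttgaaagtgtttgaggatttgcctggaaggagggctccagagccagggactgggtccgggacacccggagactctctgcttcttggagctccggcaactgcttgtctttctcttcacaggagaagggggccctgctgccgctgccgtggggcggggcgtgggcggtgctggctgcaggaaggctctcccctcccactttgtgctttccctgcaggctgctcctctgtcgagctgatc
The windows are chr15:74212260-74212509, chr1:12618211-12618460 and chr9:129753043-129753292. RefSeq gives 5 starts for STRA6, 3 for DHRS3 and 1 for PTGES, and the window shown is the one farthest upstream. The STRA6 window shown held 3 hexamers and is the richest of its 5, of which 3 held 0. The DHRS3 window shown held 0 and its other windows 1 each, and the PTGES window held 0. RefSeq windows were at hand for 9 of the 13 called genes, 21 windows in all, and 9 of these windows (of 6 genes) held a hexamer. Over all 35116 RefSeq windows of this length, 33.8% held one. Direct repeats of the hexamers with 1, 2, 4 or 5 bases between them were found in 0.0968%, 0.0313%, 0.0740% and 0.0740% of all windows and in none of the 21. These matches describe the letters of the windows only.

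Among genes that break down or reduce retinoids, CYP26B1 and DHRS3 passed. CYP26B1 encodes an enzyme that degrades retinoic acid. Its levels were 24.5, 17.3 and 13.0 with A34 (18.3 ± 5.8) and 67.5, 54.5 and 52.0 with A41 (58.0 ± 8.3). The lowest A41 library was above the highest A34 library by a wide gap, and the ratio of means was 3.17 (log2 fold change 1.65, SE 0.20, adjusted p = 0.0019). Ethanol gave 3.95 ± 0.93 and bexarotene 14.1 ± 1.6, so the A34 level lay near that of bexarotene.

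DHRS3 encodes a retinaldehyde reductase, which turns the precursor of retinoic acid back towards retinol. The A34 libraries had 79.7, 73.0 and 79.9 (77.5 ± 3.9) and the A41 libraries 159, 145 and 161 (155 ± 8.9). The spread within each group was small beside this gap, and the ratio of means was 2.00 (log2 fold change 0.99, SE 0.09, adjusted p = 0.0001). Ethanol gave 34.8 ± 4.3 and bexarotene 66.7 ± 4.1.

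On the uptake side, STRA6, which takes retinol into the cell from its carrier in blood, was at 2.38, 2.53 and 1.32 with A34 (2.08 ± 0.66) and at 9.50, 6.97 and 7.46 with A41 (7.97 ± 1.3). The groups did not overlap, and the ratio of means was 3.84 (log2 fold change 1.56, SE 0.21, adjusted p = 0.0075). It was low in ethanol (0.641 ± 0.29) and at 2.05 ± 0.80 in bexarotene. STRA6 shares 9563 bases with CCDC33 on the opposite strand, and CCDC33 had means of 0.0834 with A34 and 0.0802 with A41. Of the 8 tested genes of retinol uptake, binding and retinoic acid synthesis (14 listed), STRA6 alone passed and the median was 0.05, beside -0.005 over all genes tested. The retinol dehydrogenase RDH10 was at 2.79 to 3.42 with A34 and at 4.09 to 4.85 with A41 (0.43, adjusted p = 0.34). The retinoic acid binding protein CRABP2 was at 87.4, 35.8 and 47.4 and at 75.3, 60.5 and 56.5, groups that overlap (0.26, adjusted p = 0.87).

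Other RAR target genes that passed were TGM2 and NRIP1. TGM2, a transglutaminase that crosslinks proteins, was at 231, 204 and 199 with A34 (211 ± 17) and at 358, 353 and 320 with A41 (344 ± 21), against 164 ± 4.3 in ethanol. The groups differed by 0.70 on the log2 scale (SE 0.08, adjusted p = 0.0019), and no library of one group reached the other. NRIP1, a corepressor that binds liganded nuclear receptors, was at 34.3, 30.8 and 29.7 with A34 and at 50.5, 44.9 and 43.1 with A41 (0.53, SE 0.09, adjusted p = 0.032). Ethanol gave 27.2 ± 2.7 for NRIP1.

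Of 15 RAR target genes listed, 14 were found by symbol and 11 passed the filter on low values. Of these, 5 were called higher (CYP26B1, DHRS3, STRA6, TGM2 and NRIP1). Over all genes tested 0.0712% were called higher. The list was chosen with earlier results of these data known, so its count is descriptive only. The median of the 11 was 0.53, and in 7 of them the 3 A41 libraries all lay above the 3 A34 libraries, an order found in 5.3% of all genes tested. HOXA5, a homeobox gene, was at 1.14, 1.82 and 1.79 with A34 and at 3.50, 3.24 and 3.84 with A41 and did not pass (0.82, adjusted p = 0.11). RARB, the receptor gene that is itself a classical RAR target, was at 8.63, 5.37 and 6.02 with A34 and at 10.96, 6.27 and 6.93 with A41. Those groups overlap, and the interval ran from -0.21 to 0.66 (0.23, adjusted p = 0.82). RARA was at 26.8, 21.3 and 14.8 with A34 and at 16.8, 16.3 and 15.7 with A41 (-0.31, interval -0.72 to 0.10, adjusted p = 0.74).

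PTGES encodes the inducible synthase that makes prostaglandin E2. It was at 50.8, 46.2 and 42.6 with A34 (46.6 ± 4.1) and at 127, 153 and 105 with A41 (128 ± 24), with ethanol at 28.7 ± 4.5 and bexarotene at 41.1 ± 8.5. The ratio of means was 2.75 (1.43 on the log2 scale, SE 0.16, adjusted p = 0.0013), with replicate 2 the highest A41 library. Without that library the log2 fold change was 1.30 and the adjusted p 0.0079. Of the 8 tested prostaglandin pathway genes (17 listed) PTGES alone passed, with a list median of -0.01. The cyclooxygenase PTGS2 had -0.40 (adjusted p = 0.82) and the other synthase genes PTGES2 and PTGES3 had 0.02 (0.98) and -0.12 (0.78).

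ID1 and SMAD3 belong to the TGF-beta and BMP pathway, in which ID1 is a target that blocks differentiation factors and SMAD3 carries the TGF-beta signal to the nucleus. ID1 was at 292, 301 and 296 with A34 (297 ± 4.7) and at 427, 374 and 423 with A41 (408 ± 30), which differ by 0.46 on the log2 scale (SE 0.06, adjusted p = 0.0092). SMAD3 was at 57.3, 46.7 and 42.2 with A34 and at 78.1, 70.3 and 74.3 with A41 (0.61, SE 0.10, adjusted p = 0.032). Ethanol gave 219 ± 8.9 for ID1 and 38.2 ± 1.6 for SMAD3. These were the 2 calls among 22 tested members (23 listed), whose median was 0.07 (relative to all genes -0.01 without A41 replicate 1 and 0.13 without A34 replicate 1). LTBP3, which helps store latent TGF-beta, had 0.67 (adjusted p = 0.12), and the related ID2 and ID3 had -0.47 (0.66) and 0.05 (0.96).

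PTPRJ, a receptor tyrosine phosphatase, was at 12.1, 13.3 and 12.6 with A34 and at 19.7, 21.5 and 22.7 with A41 (log2 fold change 0.71, SE 0.10, adjusted p = 0.010). The A34 libraries lay close to ethanol (11.9 ± 0.68). GALNT12, an enzyme that starts mucin-type sugar chains, was at 24.6, 23.8 and 18.7 with A34 and at 44.4, 39.2 and 36.2 with A41 (0.81, SE 0.13, adjusted p = 0.032), above ethanol at 12.1 ± 1.4. Among 13 tested genes of secretory glycosyltransferases and kinases (17 listed) it was the call, and the list median was 0.00. FAM20C, a kinase of the secretory pathway, was at 142, 107 and 102 with A34 and at 155, 165 and 162 with A41, beside 44.6 ± 2.1 in ethanol. Its groups did not overlap, but the difference did not pass (0.47, interval 0.19 to 0.74, adjusted p = 0.36).

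The last 3 calls are less certain measurements. HOTAIRM1, a long noncoding RNA of the HOXA cluster, was at 24.6, 26.4 and 24.3 with A34 and at 42.7, 38.7 and 37.7 with A41 (0.64, SE 0.11, adjusted p = 0.045). The handling of strand is not stated, which leaves its level less certain. FAM89B was at 28.6, 24.9 and 31.7 with A34 and at 40.8, 42.0 and 41.1 with A41 (0.53, SE 0.09, adjusted p = 0.045), and 1594 of its bases are shared with ZNRD2 on the same strand. LINC02551, a noncoding RNA, was listed at 0 in the 3 A34 libraries and at 3.94, 2.76 and 2.22 with A41 (1.97, SE 0.32, adjusted p = 0.032). Ethanol libraries had 2.13, 2.20 and 1.41 and bexarotene libraries 3.82, 2.67 and 2.49, so of these 4 groups A34 alone was listed at 0. An exact 0 in these tables can be a failed estimate, so no fold is given.

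In GRCh38 coordinates of the deposited tables, CYP26B1 (ENSG00000003137) lies at bases 72129238 to 72148038 of chromosome 2, DHRS3 (ENSG00000162496) bases 12567910 to 12618210 of chromosome 1 and STRA6 (ENSG00000137868) bases 74179466 to 74212267 of chromosome 15. PTGES (ENSG00000148344) spans bases 129738331 to 129753042 of chromosome 9, TGM2 (ENSG00000198959) bases 38127385 to 38166578 of chromosome 20 and ID1 (ENSG00000125968) bases 31605283 to 31606515 of chromosome 20.

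**Figure D2:**
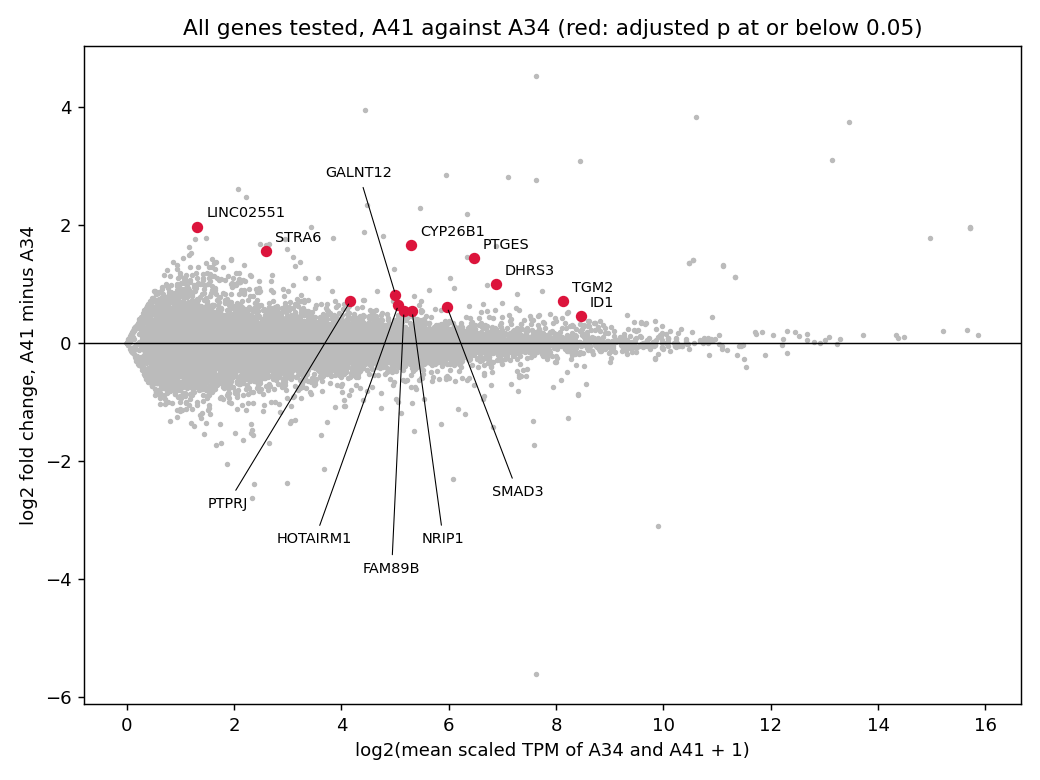
Log2 fold change, A41 minus A34, against the mean level of the 2 groups for all 18269 genes tested; red points are the 13 genes at an adjusted p of 0.05 or less. All 13 lie above the line at 0, and many grey points lie farther from the line than they do.

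How firmly these calls stand differed between genes. DHRS3, PTGES, TGM2, CYP26B1 and STRA6 were still called after leaving out any 1 of the 6 libraries, with STRA6 reaching an adjusted p of 0.045. Unlike the others, STRA6 was lost by limma with a pseudocount of 0.1 (adjusted p = 0.060), and a minimum of 5 TPM left it untested. ID1 was lost without A34 replicate 1 (0.0503) or A41 replicate 3 (0.0816), and PTPRJ without A34 replicate 1 (0.0561), A41 replicate 2 (0.0733) or A41 replicate 3 (0.0822). NRIP1 and SMAD3 stayed past it only without A34 replicate 1 and FAM89B only without A34 replicate 3, with 0.082 to 0.13, 0.090 to 0.14 and 0.090 to 0.19 in the other omissions. GALNT12 (0.050 to 0.14), LINC02551 (0.082 to 0.14) and HOTAIRM1 (0.11 to 0.17) were lost in each of the 6. Without A41 replicate 2, the library rich in ribosomal RNA, 6 genes were called, those 5 and ID1. TPM as deposited, with no scaling, called 0 (826 genes with an unadjusted p under 0.05). A fit of the 6 libraries alone called 0 genes in either direction (smallest adjusted p 0.12, 868 genes with an unadjusted p under 0.05), so the 13 calls rest on the spread estimated over all 18 libraries.

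Set beside the vehicle in the same fit, which shares libraries between comparisons, A34 against ethanol called 15 genes (0.0821%) and A41 against ethanol 138 (0.755%). The log2 fold changes over ethanol were 1.94 with A34 and 3.58 with A41 for CYP26B1 (adjusted p = 0.00018 and 7.4e-08) and 1.14 and 2.13 for DHRS3 (1.5e-05 and 1.5e-09). For ID1 they were 0.44 and 0.89 (0.0097 and 1.7e-06), and for GALNT12 0.83 and 1.65 (0.022 and 5.4e-06). For the other genes the A34 value did not pass: PTGES had 0.69 (adjusted p = 0.16) against 2.12 (2.4e-06), TGM2 0.36 (0.16) against 1.06 (4.0e-06) and STRA6 0.90 (0.18) against 2.46 (1.1e-05). PTPRJ had 0.08 (0.81) against 0.79 (0.00073) and HOTAIRM1 0.09 (0.83) against 0.73 (0.0036), and the A34 libraries of both lay near those of ethanol.

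For lipid genes no difference between A41 and A34 was called. SCD, the stearoyl-CoA desaturase of fatty acid synthesis, was at 222, 165 and 142 with A34 and at 195, 153 and 163 with A41. The ranges lie within each other and both are far above ethanol (45.6 ± 5.1). The difference was -0.03 with an interval from -0.37 to 0.30 (adjusted p = 0.98), while the changes over ethanol were 1.91 and 1.88 (1.7e-05 and 8.2e-06). ABCA1, the cholesterol exporter, was at 77.0, 69.2 and 53.2 with A34 and at 64.1, 55.0 and 59.0 with A41, above ethanol at 22.9 ± 1.2. Its difference was -0.15 with an interval from -0.40 to 0.11 (adjusted p = 0.81). SREBF1, the regulator of fatty acid synthesis, was at 23.3, 16.0 and 11.2 and at 15.2, 17.6 and 13.3 (-0.08, interval -0.52 to 0.37, adjusted p = 0.95). These intervals limit the size of a difference and do not show that the compounds act alike.

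Of 9 tested LXR target genes (12 listed) none passed, beside 0.0712% over all genes tested, a share at which most short lists hold none. The LXR list median was -0.03 (relative to all genes -0.30 without A34 replicate 3 and 0.04 without A34 replicate 1). In 2 of the LXR genes all 3 A41 libraries lay below the A34 libraries, an order found in 4.48% of all genes tested. SMPDL3A, a phosphodiesterase-like enzyme, was one of them (-0.41, adjusted p = 0.48). Of 13 tested fatty acid synthesis genes (14 listed) none passed, and the median was 0.08, with the desaturase FADS1 at 0.13 (adjusted p = 0.69) and ACLY, which makes acetyl-CoA, at 0.02 (0.95). Of 23 cholesterol synthesis and uptake genes (24 listed) none passed, 18 were positive and the median was 0.10. FDPS, of the isoprenoid steps, was at 103, 103 and 109 with A34 and at 112, 127 and 111 with A41 (0.15, adjusted p = 0.74). Among 13 PPAR target and fatty acid oxidation genes (16 listed), also with none past the threshold, the lipase inhibitor ANGPTL4 was at 259, 106 and 46.7 with A34 and at 138, 61.7 and 52.2 with A41. The libraries of a group differed several-fold, so its interval was wide (-0.50, from -1.80 to 0.80, adjusted p = 0.88).

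**Figure D3:**
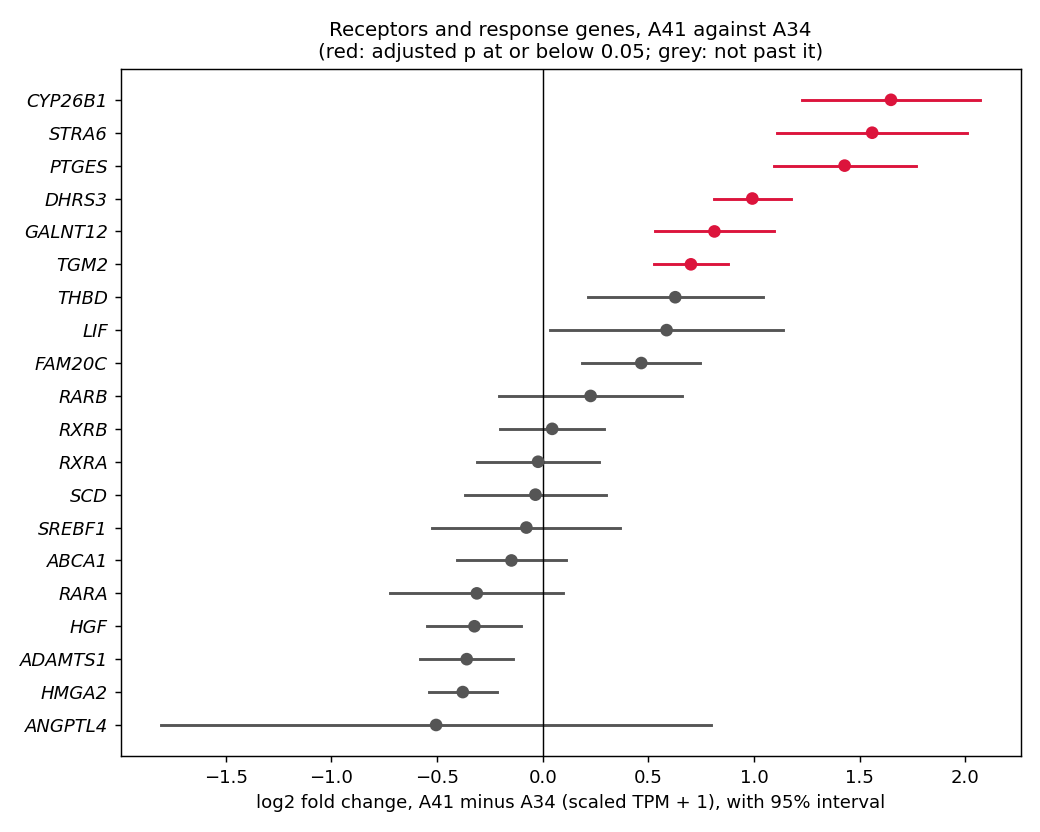
Log2 fold change, A41 minus A34, with its 95% interval for 20 receptor and response genes; red marks an adjusted p of 0.05 or less. CYP26B1, STRA6 and PTGES lie highest, SCD, SREBF1 and ABCA1 have intervals that include 0, and ANGPTL4 has the widest.

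No difference was called for the RXR genes themselves. RXRA was at 5.04, 5.87 and 5.66 with A34 and at 5.17, 5.36 and 5.73 with A41 (-0.02, interval -0.31 to 0.27, adjusted p = 0.98). RXRB was at 7.01, 9.85 and 8.75 and at 8.99, 8.78 and 8.52 (0.05, interval -0.20 to 0.29, adjusted p = 0.95). NRIP1 was the call among 22 tested nuclear receptors and cofactors (23 listed), whose median was 0.09 (relative to all genes 0.04 without A41 replicate 2). The vitamin D receptor gene VDR was at 20.7, 23.9 and 19.7 with A34 and at 29.2, 29.0 and 31.3 with A41 and did not pass (0.46, adjusted p = 0.12). NR4A1, an orphan receptor gene of the immediate early kind, had 0.85 (adjusted p = 0.28) at levels of 3.21 or less.

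Secreted factors and regulators of growth gave no call, beside 0.0712% called over all genes tested, a share at which most short lists hold none. THBD, the anticoagulant receptor thrombomodulin, was at 5.37, 4.91 and 4.68 with A34 and at 10.5, 8.65 and 6.13 with A41 (0.63, interval 0.21 to 1.04, adjusted p = 0.42). LIF, a cytokine of the IL6 family, was at 145, 128 and 89.8 and at 199, 213 and 134 (0.59, interval 0.03 to 1.14, adjusted p = 0.61), and those groups overlap. HGF, the ligand of the MET receptor, was at 5.25, 4.92 and 5.06 with A34 and at 3.78, 3.58 and 4.22 with A41, both below ethanol at 7.92 ± 0.38 (-0.32, interval -0.55 to -0.10, adjusted p = 0.45).

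HMGA2, an oncofetal chromatin protein, was at 98.1, 99.2 and 93.7 with A34 and at 77.5, 68.2 and 77.9 with A41, with ethanol at 132 ± 6.9. All A41 libraries were lower, but the difference did not pass (-0.38, interval -0.54 to -0.22, adjusted p = 0.12). ADAMTS1, a matrix protease, was at 31.1, 31.0 and 27.3 with A34 and at 21.7, 24.3 and 23.0 with A41 (-0.36, interval -0.58 to -0.14, adjusted p = 0.37). By list, 0 of 16 coagulation and plasminogen genes (16 listed), 0 of 12 IL6 family genes (12), 0 of 16 growth factor ligands and receptors (20) and 0 of 18 ERK feedback and immediate early genes (18) passed. Their medians were -0.07, 0.12, -0.03 and -0.05. None passed among 14 matrix proteases and inhibitors (15 listed), 11 oncofetal and growth regulators (13) and 18 mesenchymal genes (22). In that order the medians were -0.05, -0.05 and -0.08. Of the 22 mesenchymal genes listed, 20 were found by symbol. Over all genes tested 0.0712% were called, a share at which most short lists hold none. Medians this near 0 depend on single libraries: relative to all genes, 13 of the 33 lists had a median whose sign differed between omissions of 1 library. The mesenchymal median was -0.07 with all libraries, -0.23 without A34 replicate 3, -0.20 without A41 replicate 1 and 0.02 without A34 replicate 1. The coagulation median was -0.07, with -0.10 without A34 replicate 2, 0.03 without A41 replicate 2 and 0.04 without A34 replicate 1.

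HOX genes set position along the body axis and include known retinoid targets. None of 21 tested (34 listed) passed, beside 0.0712% called over all genes tested. The HOX median was 0.18, and 15 were positive. Without A41 replicate 3 the median relative to all genes was 0.08, and with a minimum of 5 TPM it was 0.04. HOXA3 was at 2.84, 2.74 and 4.47 with A34 and at 6.28, 5.00 and 5.72 with A41 (0.63, adjusted p = 0.50), while HOXB2 had 0.18 (0.80) and HOXD8 -0.20 (0.85).

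Several lists leaned one way with no member past the threshold, beside 0.0712% called over all genes tested. All 18 hypoxia and glycolysis genes had negative differences, with a median of -0.53. The mean log2 level of the list was 7.71, 6.94 and 6.63 in the A34 libraries and 7.01, 6.23 and 6.26 in the A41 libraries, beside 6.37, 6.26 and 6.06 in ethanol. The groups overlap, since A41 replicate 1 was above A34 replicates 2 and 3, and in none of the 18 genes did the groups separate. Over all genes tested, 4.48% had all A41 libraries below and 5.3% all above the A34 libraries. At such shares a list of 18 can hold none. At each replicate number the list level of the A41 library was below that of the A34 library. The numbers did not meet the pairing rule given below, and a pairing limited to these genes was not tested. Replicate 1 had the highest list level in every group of the series. NDRG1, a stress-response gene, was at 800, 306 and 186 with A34 and at 275, 111 and 105 with A41 (-1.27, adjusted p = 0.58). The glucose transporter SLC2A1 was at 154, 79.5 and 58.9 and at 69.3, 32.9 and 29.4 (-1.12, adjusted p = 0.49). In both genes replicate 1 was the highest library of its group. Relative to all genes the list median was -0.52, and without A34 replicate 1 it was -0.27.

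Of 18 genes of the unfolded protein and ATF4 response, 15 were negative, the median was -0.21 and 6 had all A41 libraries below the A34 libraries (4.48% of all genes tested). Relative to all genes the median was -0.20, with -0.35 without A34 replicate 3 and -0.32 without A41 replicate 1. It was nearest to 0 without A34 replicate 1, at -0.15. PSAT1, an enzyme of serine synthesis, was at 114, 90.9 and 87.9 with A34 and at 81.3, 53.2 and 55.5 with A41 (-0.63, adjusted p = 0.23). Asparagine synthetase, ASNS, was at 71.2, 62.4 and 52.1 and at 47.5, 34.8 and 34.8 (-0.66, adjusted p = 0.29), and ATF4 itself had -0.28 (0.69). The mean log2 level of this list was 5.61, 5.45 and 5.27 with A34, 5.32, 5.11 and 5.01 with A41 and 5.08, 4.97 and 4.99 with ethanol.

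All 17 S phase genes were positive, with a median of 0.18, and in 8 all A41 libraries lay above the A34 libraries (5.3% of all genes tested). UHRF1, which guides maintenance of DNA methylation, was at 49.9, 57.9 and 57.2 with A34 and at 66.2, 72.3 and 69.4 with A41 (0.33, adjusted p = 0.27). The mean log2 level of the list was 5.39, 5.51 and 5.57 with A34, 5.59, 5.76 and 5.70 with A41, and 5.63, 5.60 and 5.62 with ethanol. Of 17 genes of G2 and mitosis 16 were positive with a median of 0.09, and the cyclin CCNB1 had 0.15 (adjusted p = 0.77).

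The remaining lists were nearer to the median of all genes or varied more within groups. Of 14 tested chemokines and NF-kB targets (18 listed) 12 were negative with a median of -0.40, and CXCL8, a chemokine that attracts neutrophils, was at 281, 193 and 133 with A34 and at 227, 108 and 88.7 with A41 (-0.57, adjusted p = 0.77). The inflammatory cytokine IL1B had a positive difference, at 734, 685 and 404 and at 1052, 843 and 473 (0.35, adjusted p = 0.86), and both pairs of groups overlap. Relative to all genes the chemokine list median was -0.39, and it was -0.22 without A34 replicate 1, -0.26 without A41 replicate 2 and -0.24 without A41 replicate 3. The 13 interferon genes (14 listed), 12 NRF2 and glutathione genes and 13 p53 targets had medians of -0.05, -0.03 and -0.07, and the interferon median relative to all genes was 0.08 without A41 replicate 2. All 13 mitochondrially encoded genes were positive with a median of 0.12, which relative to all genes was 0.13, or 0.04 with TPM as deposited and 0.00 without A34 replicate 3. No gene of these lists passed, beside 0.0712% called over all genes tested.

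Markers of other cell types were measured beside these lists and none passed, where 0.0712% of all genes tested were called. The tested astroglial markers numbered 8 of 14 (median 0.15), the neuronal 7 of 11 (-0.32), the oligodendrocyte 2 of 7, the endothelial 2 of 6, the microglia and leukocyte 2 of 9 and the epithelial 3 of 7. The most abundant neuronal member, ENO2, is a glycolytic enzyme also in the hypoxia list and was at 266, 170 and 149 with A34 and at 165, 117 and 106 with A41 (-0.57, adjusted p = 0.56). SNAP25, a synaptic protein, was at 19.9, 13.2 and 12.6 and at 13.1, 8.83 and 10.1 (-0.46, adjusted p = 0.58). Of the 7 neuronal markers 6 were negative and 1 positive. TUBB3 was at 62.7 to 70.4 with A34 and 55.0 to 68.1 with A41, and SYN1 at 0.799 to 4.44 and 2.59 to 4.74, with a higher mean in A41. Fewer cells of a kind and less RNA per cell cannot be told apart in RNA from whole cultures.

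**Figure D4:**
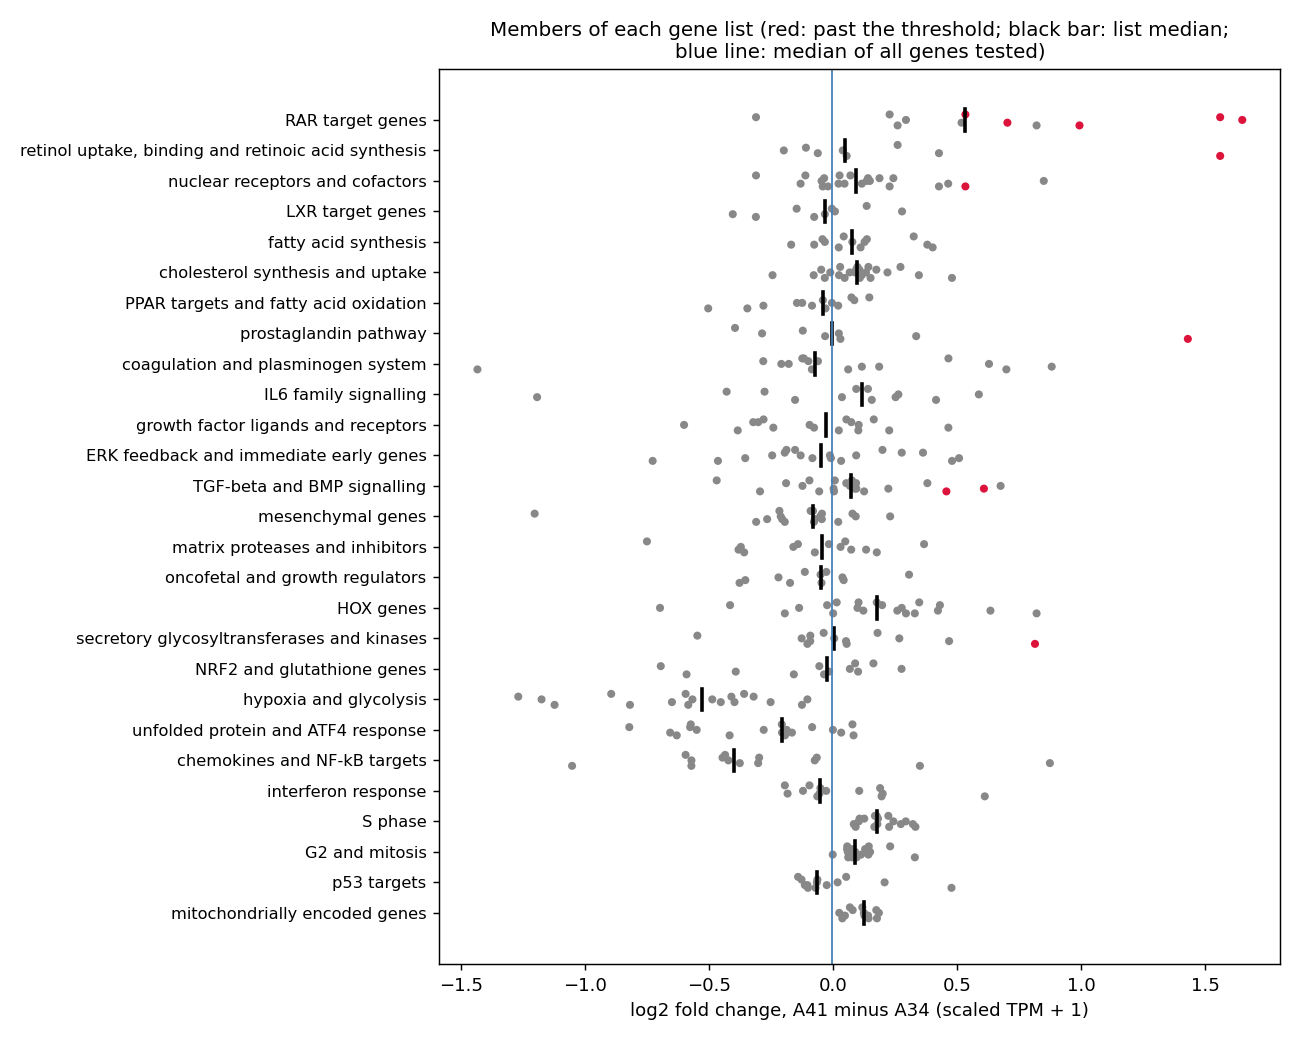
Log2 fold change, A41 minus A34, of the tested members of 27 gene lists (points), with each list's median (black bar) and the median of all genes tested (blue line); red marks an adjusted p of 0.05 or less. The RAR target list has 5 red points and a median of 0.53, and the hypoxia and glycolysis list lies wholly below 0 with no red point.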

How the data were processed

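RNA of 18 libraries of U87 cells was analysed from the deposited gene tables, 1 per library. The aligner STAR, the assembler StringTie, the summary tool MultiQC and build GRCh38 are named in the submitters' processing notes. The sources used here give no versions, no annotation release and no strand setting. TPM (a share of a library's transcripts) was computed by the authors, per the file headers, and was the value tested. FPKM (fragments per kilobase and depth) and coverage (the mean signal per base of a gene) stood in the same deposited tables and served only to obtain depth, from their ratio. No read counts were used, so no count model was fitted.

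Of the 60675 gene IDs, 58444 were in GENCODE release 29. The 2 or 3 IDs repeated in a library were summed. TPM was divided by median-of-ratios factors (0.419 to 1.21) from 16349 genes above 0 in all 18 libraries. The 18269 genes that reached 1 TPM in 3 or more libraries were fitted as log2(scaled TPM + 1) with limma 3.58.1 in R 4.3.3, with 6 groups, a trend, 12 residual and 3.39 prior degrees of freedom, and no replicate block. Tests were two-sided with Benjamini-Hochberg adjustment, a threshold of 0.05 and 95% intervals. No 2 libraries held identical values.

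Groups came from the titles. The compounds, 33 lists, 20 receptor and response genes and tests were chosen with earlier results of these data known, and lists are described by counts and medians without a test. Named genes were the up to 15 called genes with the largest increase and up to 15 with the largest decrease (groups not overlapping, higher mean at least 2 scaled TPM, span at least 300 bases), the 20 genes, called list members, and the 3 most abundant members of each list with no call. Other members named were chosen after their values were seen. Alternatives were another pseudocount (0.1), filters, scalings, libraries, array weights and replicate blocks; 2 scalings were added after seeing the data. Some list members are not reported here by name. The fitting was tested on simulated data. Depth (1.31 to 3.89 gigabases) limits genes near 1 TPM most.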

Additional observations from a re-analysis of the deposited data

How the results depend on the processing

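The main fit's 13 higher and 0 lower genes changed with the processing. All 13 kept a positive log2 fold change in each of the 19 alternatives in which they were tested, but most of these could not turn the sign. In each of the 13 genes every A41 library lay above every A34 library, so only another scaling could turn it. With TPM as deposited the ID1 log2 fold change was 0.02. The number higher was 10 with a pseudocount of 0.1, 8 with no filter on low values (1 lower) and 11 with a minimum of 5 TPM. It was 0 (0 lower) with TPM as deposited, where the median of all genes moved to -0.35 and the smallest adjusted p was 0.10, with 826 genes at an unadjusted p under 0.05. With median of ratios over the 6 libraries and with the 6 libraries only, 0 were higher and 0 lower (867 and 868 at an unadjusted p under 0.05). Array weights gave 51 higher and 22 lower. Without the 3 libraries rich in ribosomal RNA 6 were higher and 0 lower. The number higher was 5 with TPM made again without ribosomal RNA genes and 6 with deposited TPM without the rich libraries, both chosen after seeing the data. Leaving out 1 library gave 5 to 13 higher and 0 to 4 lower: 8 and 0 without A34 replicate 1, 8 and 1 without A34 replicate 2, 7 and 4 without A41 replicate 1, 6 and 0 without A41 replicate 2, and 5 and 0 without A41 replicate 3. The cause was not tested.

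Libraries of the same number were taken as paired only if the deviations from their group means correlated above 0.1 for all 3 numbers. The correlations were 0.23, 0.015 and 0.029, so this rule was not met. The 0.23 of replicate 1 was the highest of any A34 and A41 pair, and A34 replicate 3 correlated best with A41 replicate 2 (0.17). A replicate effect limited to some genes was not tested. With a replicate block from the titles 20 genes were higher and 9 lower, with the block from the file numbers 16 and 3, and with the block in the 6 libraries alone 0 and 0 (1237 at an unadjusted p under 0.05).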

Other observations

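Of the 20 genes ranked next by p, 16 had a positive and 4 a negative difference, and none passed by limma (adjusted p from 0.081), while over all genes with an unadjusted p under 0.05 the directions were near even (726 higher, 713 lower). The 4 named here were chosen after their values were seen. BGLAP, the bone protein osteocalcin and a vitamin D target, was at 0, 1.35 and 0.174 scaled TPM with A34 and at 8.22, 5.44 and 6.73 with A41 (adjusted p = 0.11). Its level is less certain, since an exact 0 in these tables can be a failed estimate. Overlap with other genes was examined for the called genes only, so not for BGLAP. The cytoskeletal kinase LIMK1 was at 117, 119 and 127 with A34 and at 149, 176 and 159 with A41 (log2 fold change 0.41, adjusted p = 0.11). GATA6, a transcription factor of endoderm and heart, was at 6.50, 5.74 and 6.31 and at 10.5, 9.18 and 8.38 (0.52, adjusted p = 0.11). The channel gene AQP9 was at 25.8, 35.3 and 38.2 and at 49.8, 53.8 and 57.8 (0.70, adjusted p = 0.11). In each of these 4 genes the groups did not overlap.

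The largest differences between the group means were not among the calls. Of 22 genes with a log2 fold change of at least 2 in either direction, 0 passed. STX16-NPEPL1, annotated as a readthrough of 2 genes, was at 0.757, 1.47 and 332 with A34 and at 166, 439 and 235 with A41 (4.52, adjusted p = 0.37). CST2 was listed at 0 in A34 replicate 2 and at 1478 or more in the other 5 libraries (adjusted p = 0.84). DQX1 was at 0.436 in A41 replicate 2 and at 954 or more in the other 5 (adjusted p = 0.80). AC109587.1 was at 278, 417 and 320 with A34 and at 166, 0.215 and 0.556 with A41 (-5.62, adjusted p = 0.42). Each of these 4 had libraries of 1 group that lay far apart.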
